A study of Mus musculus with 24 samples.

Results

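Hepatic stellate cells are represented here by 10 genes chosen by symbol as markers of their quiescent or activated state: Acta2, Tagln, Des, Reln, Hand2, Lhx2, Ngfr, Colec11, Rgs5 and Hhip. All 10 have a row among the 56205 gene rows of the count table. Of these, 9 passed the filter on low counts, against 14109 genes tested in all, and Hhip did not. RNA was sequenced, after poly(A) selection, from whole livers of 24 C57BL/6J mice at the end of 20 weeks on diet. One group of 12 animals received food lacking methionine and choline (MCD) and the other 12 a control diet. The methods describe the MCD diet as high in fat and pair it with a matched control diet, the labels call the control a chow, and the results of the study name a choline-deficient high-fat diet. Males and females were used in equal numbers in each diet, but no label gives the sex of a library, and no genotype beyond the strain is named.

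Stellate cells lie between hepatocytes and the sinusoidal endothelium and store vitamin A. When the liver is injured they lose their lipid droplets, acquire contractile filaments and secrete fibrillar collagen, a transition called activation, and the resulting cells are myofibroblasts. Acta2 (smooth muscle actin) and Tagln (transgelin) encode contractile proteins that mark this state, although vascular smooth muscle also makes them. Des (desmin) is the intermediate filament of stellate and muscle cells. Reln (the secreted glycoprotein reelin), the transcription factors Hand2 and Lhx2, Ngfr (the p75 neurotrophin receptor) and Colec11 (a complement-activating collectin) are used as markers of the lineage, Rgs5 (a regulator of G-protein signalling) of pericyte-like cells, and Hhip encodes a decoy receptor that binds Hedgehog ligands.

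MCD livers held more RNA of the contractile and filament genes and of Hand2, and almost no Hhip, while the remaining markers differed less. Acta2, Tagln, Des and Hand2 rose, by 1.90- to 2.73-fold. Reln, Ngfr, Colec11, Rgs5 and Lhx2 did not pass the threshold, set at an adjusted p (FDR, Benjamini-Hochberg) of 0.01 or less together with a change of more than 0.5 on the log2 scale in either direction. Thus 4 of the 9 tested members were higher and 0 were lower. Over all tested genes 38.3% passed, 19.2% higher and 19.1% lower. The median log2 fold change was 0.03 over the 9 members and -0.10 over all tested genes. DESeq2 and limma-voom also gave 4 higher and 0 lower. In the edgeR fit 3 further members (Reln, Ngfr and Colec11), all with lower values in MCD, had an unadjusted p under 0.05 and an FDR of 0.05 or less. With that limit and no fold limit, 63.5% of all tested genes passed and 37.0% passed lower, so 3 of 9 lay near the background. This held least for Colec11, whose FDR was above 0.05 in 13 of the 24 fits that left out a library, was 0.102 with DESeq2 and was 0.0899 with a replicate block. For Reln and Ngfr the FDR was above 0.05 with upper-quartile factors (0.0617 and 0.0991) and with total counts alone (0.697 and 0.718). In whole liver RNA, fewer cells of a type and less RNA per cell cannot be told apart.

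Total counts ran from 16793207 to 24915175 in control and from 16388650 to 24577848 in MCD libraries. TMM factors, which correct for composition, were 0.642 to 0.973 in control and 1.07 to 1.26 in MCD libraries, so the scale matters here. With total counts alone the median log2 fold change of all genes was 0.27 instead of -0.10, and the 9 tested members all shifted upward with it. Control replicate 12 stood apart. It had the lowest TMM factor, the highest Des and Hand2 and the lowest Reln, Rgs5 and Hhip of the control group.

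Promoter sequence is shown for members whose levels differed most between the diets, so that the letters can be read beside the values. RefSeq (GRCm38.p6) has promoter entries for 9 of the 10 members, and none here for Tagln. For Acta2 the start used by RefSeq lies 217 bases inside the start used by GENCODE, so that only stretches of 30 bases are given, 5′ to 3′. The capitals mark the 6 letters GGAATG (the reverse complement of CATTCC, the core that TEAD factors recognise) in the upper stretch and a CArG-like element, the serum response factor site of smooth muscle genes with 1 mismatch in its centre, in both others.
Acta2, chr19:34255502-34255531, minus strand: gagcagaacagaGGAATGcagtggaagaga
Acta2, chr19:34255438-34255467, minus strand: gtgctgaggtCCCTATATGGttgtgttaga
Acta2, chr19:34255388-34255417, minus strand: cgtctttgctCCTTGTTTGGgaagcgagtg
These elements begin 146, 84 and 34 bases upstream of the RefSeq start. Among 32851 RefSeq promoters, searched on both strands over 250 upstream bases, 12.6% hold CATTCC and 8.59% a CArG box with at most 1 mismatch in its centre, against 1.47% with an exact CArG box. The exact form was found in none of the 9 members with an entry, and the form with 1 mismatch was found in Acta2 alone. For Des, Hand2 and Hhip the 250 bases before the RefSeq start follow. Capitals mark GGGCGG in either orientation (the GC box of Sp1) and, in Hand2, also TAATTA, the core bound by homeodomain proteins such as the LIM homeobox factors.
Des, chr1:75360042-75360291, plus strand: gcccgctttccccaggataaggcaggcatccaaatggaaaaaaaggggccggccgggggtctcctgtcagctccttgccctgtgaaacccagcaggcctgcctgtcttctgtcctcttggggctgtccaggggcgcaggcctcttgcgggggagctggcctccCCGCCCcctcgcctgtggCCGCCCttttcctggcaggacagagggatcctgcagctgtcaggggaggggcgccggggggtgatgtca
Hand2, chr8:57320733-57320982, plus strand: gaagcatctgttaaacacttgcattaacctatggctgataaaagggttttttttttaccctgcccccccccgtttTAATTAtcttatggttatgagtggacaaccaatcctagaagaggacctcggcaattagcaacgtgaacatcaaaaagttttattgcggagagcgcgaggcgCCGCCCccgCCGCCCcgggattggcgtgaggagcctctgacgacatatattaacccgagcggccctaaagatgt
Hhip, chr8:80058009-80058258, minus strand: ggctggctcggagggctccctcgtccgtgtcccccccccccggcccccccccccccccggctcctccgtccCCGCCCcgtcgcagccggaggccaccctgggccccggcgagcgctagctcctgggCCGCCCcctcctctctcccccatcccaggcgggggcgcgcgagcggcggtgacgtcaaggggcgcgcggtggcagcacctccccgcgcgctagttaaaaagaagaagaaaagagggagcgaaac
GGGCGG occurs in 32.7% and TAATTA in 4.84% of all promoters, and TAATTA was found in Hand2 only among the members. The GC content of these 250 bases was 67.2% in Des, 49.2% in Hand2 and 76.0% in Hhip, with a median of 52.4% over all promoters. GACCACCCA, the site of the GLI factors, occurs in 0.225% of promoters and was not found in these windows of the members. A match is a string of letters and not a bound site.

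The contractile genes were low in control liver and rose under the MCD diet. Acta2, on chromosome 19 (34241090 to 34255590, minus strand, GRCm38), had 0.846, 2.06 and 5.71 CPM (counts scaled per library, lowest, median and highest of 12) in control and 2.42, 4.93 and 7.68 CPM in MCD livers. The groups overlapped, with 5 of 12 MCD libraries above the highest control library. The mean level was 2.7 ± 1.56 CPM (SD, n = 12) in control and 5.42 ± 1.66 in MCD, a log2 fold change of 1.01 (edgeR FDR 9.88e-04, with an SE of 0.25). Without control replicate 12 it was 1.14 (edgeR FDR 2.71e-04). Among control livers, 3 stood at or above 4.69 CPM and the remaining 9 below 3, so the control livers were not evenly spread.

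Tagln, on chromosome 9 (45929619 to 45936058, minus strand), showed a clearer separation than Acta2. Its lowest, median and highest values were 4.92, 7.93 and 17.6 CPM in control and 14.4, 19.5 and 32.3 CPM in MCD livers. Here 9 of 12 MCD libraries exceeded every control library. The log2 fold change was 1.19 (edgeR FDR 7.28e-06, with an SE of 0.19). Its exons overlap those of Pcsk7 on the opposite strand. The supplementary methods of the study name a stranded library kit, but the use of strand in counting is not stated for these libraries. Reads in the overlap could thus belong to either gene. Pcsk7 had a log2 fold change of -0.43 (FDR 1.67e-06), opposite in sign to that of Tagln.

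**Figure D1:**
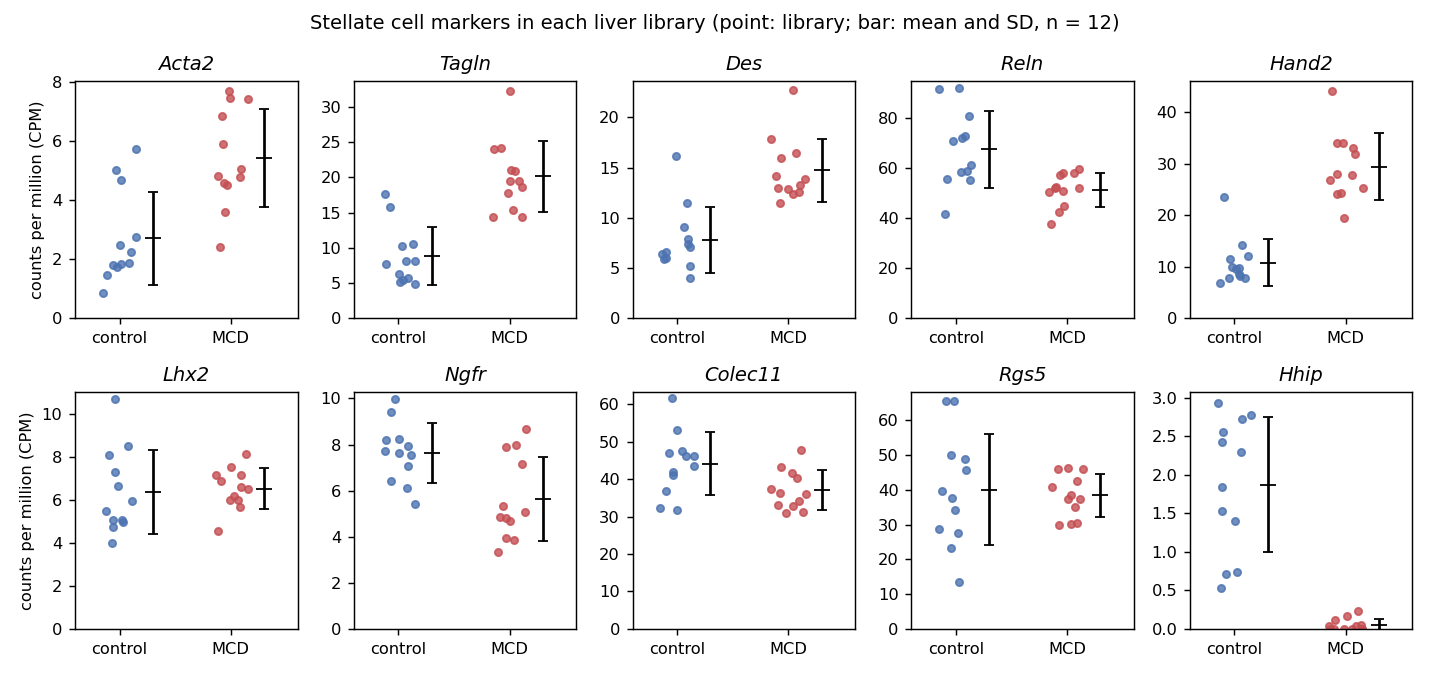
Level of each member in CPM (vertical axis, TMM-scaled, starting at 0) in 12 control and 12 MCD libraries. Each point is a library and the bar beside it is the mean with its SD. Hhip alone separates the groups completely, 11 of 12 MCD libraries lie above all controls for Hand2, and the groups share their range for Lhx2 and Rgs5.

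Des, on chromosome 1 (75360329 to 75368579, plus strand), rose 1.90-fold. Control livers had 4.03, 6.85 and 16.2 CPM and MCD livers 11.5, 13.6 and 22.7 CPM (lowest, median, highest). Only 3 MCD libraries exceeded the highest control value, which was that of control replicate 12. Without that library the highest control value was 11.5 CPM and 11 MCD libraries lay above it. The log2 fold change was 0.93 (edgeR FDR 3.02e-05, with an SE of 0.17) with all libraries and 1.10 (FDR 1.78e-07, with an SE of 0.14) without control replicate 12.

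Hand2, a basic helix-loop-helix factor, had the largest rise of the members. It lies on chromosome 8 (57320983 to 57324633, plus strand). Its values were 6.89, 9.71 and 23.6 CPM in control and 19.5, 28.0 and 44.2 CPM in MCD livers, and 11 of 12 MCD libraries exceeded every control. Without control replicate 12, at 23.6 CPM, all 12 did. The log2 fold change was 1.45 (edgeR FDR 2.93e-08, with an SE of 0.17), and 1.64 (FDR 7.96e-11, with an SE of 0.13) without that library. Hand2os1, transcribed from the opposite strand across the start of Hand2, also rose, from 3.90 to 7.28 mean CPM (log2 fold change 0.89, FDR 2.25e-05). Reads in their shared exon sequence cannot be assigned to either gene without strand.

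Lhx2, which marks the same lineage as Hand2 and whose product represses activation of stellate cells, did not pass. It lies on chromosome 2 (38339281 to 38369733, plus strand). Control livers ranged from 4.01 to 10.7 CPM with a median of 5.71, and MCD livers from 4.54 to 8.12 with a median of 6.55. The MCD range lay inside the control range. The log2 fold change was 0.03, with a 95% confidence interval from -0.25 to 0.31 (edgeR FDR 0.858), and with total counts alone it was 0.37.

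Reln gave a lower level in MCD that met the FDR but not the fold limit. It lies on chromosome 5 (21884454 to 22344702, minus strand) and was among the best-counted members, with 549 to 1641 counts per library. Control livers had 41.5, 65.9 and 91.9 CPM and MCD livers 37.6, 51.9 and 59.5 CPM. Only 1 MCD library was below the lowest control, replicate 12, but 8 were below all the others. The log2 fold change was -0.40 (edgeR FDR 0.00243, with an SE of 0.11), and -0.07 with total counts alone.

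Ngfr, on chromosome 11 (95568818 to 95587735, minus strand), had 5.40, 7.67 and 9.96 CPM in control and 3.34, 4.96 and 8.69 CPM in MCD livers. The MCD values fell into a lower part, with 8 libraries below the lowest control, and an upper part of 4 libraries inside the control range. The log2 fold change was -0.44 (edgeR FDR 0.0114, with an SE of 0.15), short of the threshold. Colec11, on chromosome 12 (28594173 to 28623377, minus strand), had 31.8, 44.8 and 61.8 CPM in control and 30.9, 36.2 and 47.8 CPM in MCD livers, with 2 MCD libraries below all controls. Its log2 fold change was -0.25 (edgeR FDR 0.0263, with an SE of 0.10), and -0.21 without control replicate 12 (edgeR FDR 0.061). With total counts alone the values were -0.08 for Ngfr and 0.10 for Colec11, the latter with the opposite sign.

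Rgs5, on chromosome 1 (169655501 to 169695813, plus strand), had nearly equal medians in the diets. Control livers ran from 13.5 CPM, in replicate 12, to 65.6 CPM with a median of 38.6, and MCD livers from 29.8 to 46.4 with a median of 38.0. All MCD libraries fell inside the control range. The coefficient of variation was 40.0% in control and 16.1% in MCD livers, and the log2 fold change was -0.06 (edgeR FDR 0.782, with an SE of 0.18). The sign of this small value was not stable, as it was 0.26 with total counts alone. Without control replicate 12 the control value was 33.8%. A smaller coefficient of variation in MCD livers was the rule, found in 90.0% of all tested genes (80.7% without that library) and in 8 of the 9 tested members, the exception being Ngfr (16.9% and 32.3%). For Hand2 it was 41.9% and 22.0%, but 22.6% in control without replicate 12, and no difference in spread was tested.

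**Figure D2:**
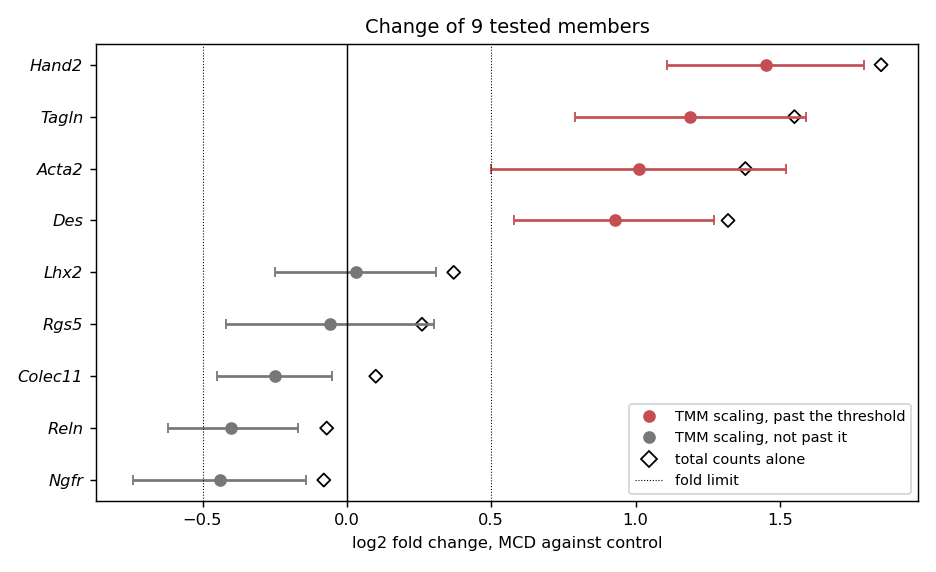
Log2 fold change of MCD against control for the 9 tested members (circles, with 95% confidence intervals; dotted lines, fold limit of 0.5) under TMM scaling, and with total counts alone (diamonds). Hand2, Tagln, Acta2 and Des lie at 0.93 or above under either scaling, and total counts place all 9 further to the right.

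Hhip, which was not among the tested genes, had groups that did not overlap. Of the 9 tested members, 0 had groups that did not overlap, against 14.4% of all tested genes. Hhip lies on chromosome 8 (79965851 to 80058006, minus strand). Control libraries held 7 to 52 counts with a median of 37, and MCD libraries 0 to 6 with a median of 0.5. No count was found in 6 MCD libraries, and 10 had 3 or fewer, the floor below which a level was taken as not resolved (0.109 to 0.158 CPM in MCD libraries). Over the group, 386 counts in control compared with 16 in MCD. Mean levels were 1.87 ± 0.873 CPM and 0.0547 ± 0.0785 CPM.

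Hhip did not pass the filter on low counts, since control replicate 12 held only 7 counts. With no filter the edgeR log2 fold change was -4.89 (FDR 1.08e-09, with an SE of 0.47). The size of the difference in mean log2 CPM depends on the prior count added before taking logs, being -3.67 with 2, -4.98 with 0.5 and -2.73 with 5. The direction was the same in all 12 MCD libraries, each of which lay below every control library.

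Levels were compared between genes per kilobase of the longest annotated transcript (RPKM). For Reln this transcript has 11699 bases, while all its annotated exons together cover 23738. The place of Reln in both orders therefore depends on the length used. Colec11 was the most abundant member in both diets, at 27.5 ± 5.27 RPKM in control and 23.1 ± 3.29 in MCD livers. In control it was followed by Rgs5 (9.77), Reln (5.76), Tagln (5.53), Hand2 (4.60), Des (2.57), Lhx2 (2.25), Ngfr (2.22), Acta2 (1.33) and Hhip (0.206). In MCD livers Tagln (12.7) and Hand2 (12.5) came next, before Rgs5 (9.38), Des (4.87), Reln (4.38), Acta2 (2.66), Lhx2 (2.30), Ngfr (1.63) and Hhip (0.00603).

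Of the 18 pairs of neighbours in these orders, 7 had an adjusted p above 0.05 (exact two-sided sign-flip test on within-library differences). In control these were Reln and Tagln, Tagln and Hand2, Des and Lhx2, and Lhx2 and Ngfr. In MCD livers they were Tagln and Hand2, Des and Reln, and Acta2 and Lhx2. The step from Colec11 to the next gene was present in 12 of 12 libraries of either diet (adjusted exact p = 0.00146). The pairs were taken from the order in these same libraries, and uncertainty in transcript length does not enter these p-values. Sequence shared with transcripts of other genes was scarce, at 7 of 1986 windows of 50 bases of Acta2 and 28 of 3397 of Ngfr, and none in the other members.

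The members were next compared with Des within each library, since Des is made by quiescent and activated stellate cells alike and such a ratio does not depend on library scaling. Relative to Des, the MCD minus control difference was 0.12 for Acta2 and 0.29 for Tagln on the log2 scale, and neither passed at 0.05 (two-sided permutation test over libraries, 100000 resamples, n = 12 per diet, p adjusted over 9 members 0.559 and 0.188). With a library left out the difference ran from 0.04 to 0.24 for Acta2 and from 0.20 to 0.41 for Tagln. The Tagln difference passed without control replicate 8. Hand2 rose by 0.51 relative to Des (adjusted p = 1.5e-04, permutation test). The other markers had lower ratios to Des in MCD livers. Lhx2 changed by -0.91, Rgs5 by -0.94, Colec11 by -1.22, Reln by -1.36, Ngfr by -1.46 and Hhip by -4.65. The value for Hhip depends on the prior count, being -5.97 with 0.5 and -3.69 with 5. The adjusted permutation p was 0.0044 for Rgs5 and between 6e-05 and 1.08e-04 for the others. Most genes gave such a ratio, Des being itself higher in MCD livers. Over the other 14108 tested genes the median difference relative to Des was -1.05, and 77.8% were lower at an unadjusted permutation p of 0.05 or less, a background computed after the members' ratios had been seen. Lhx2 and Rgs5 thus lay slightly above the median gene, Colec11, Reln and Ngfr below it, and Hand2 among the 9.4% that were higher at that p.

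With all libraries only the Hhip ratio separated the groups. For Colec11 the ratio to Des was below the lowest control in 9 of 12 MCD libraries, for Ngfr in 6, for Reln in 2 and for Lhx2 and Rgs5 in 0, and for Hhip in all 12. Control replicate 12, with its high Des, lay far below the other controls in several of these ratios. Without it all 12 MCD libraries lay below the lowest remaining control for Colec11, Ngfr, Reln, Lhx2 and Hhip, and 9 of 12 did for Rgs5. Of the 8 members tested beside Des these are 4, while 33.8% of all tested genes separated in this way without that library and 10.2% with all libraries. The differences were then -1.59 for Ngfr, -1.52 for Reln, -1.31 for Colec11, -1.17 for Rgs5 and -1.04 for Lhx2 (adjusted permutation p = 3e-05 for each), with a median of -1.14 over all tested genes. A ratio shows unequal change of a pair of genes and does not tell which of them moved.

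**Figure D3:**
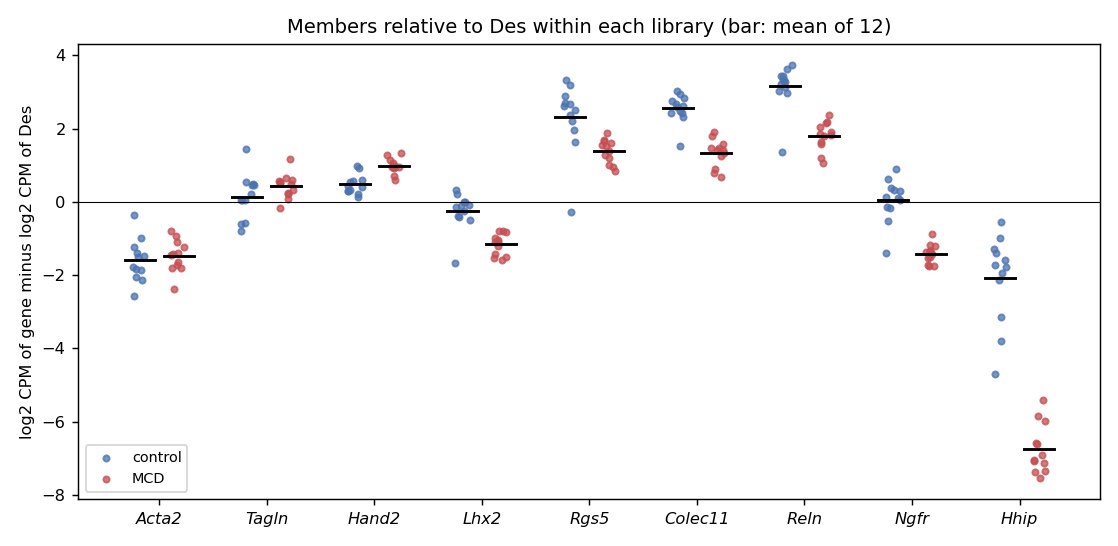
Log2 CPM of each member minus log2 CPM of Des within each library (vertical axis), for 12 control and 12 MCD libraries, with the mean as a bar. Acta2 and Tagln differ between the diets by 0.12 and 0.29, neither passing with all libraries, and Hand2 is higher by 0.51. Lhx2, Rgs5, Colec11, Reln, Ngfr and Hhip have lower ratios in MCD livers, against a median difference of -1.05 over all tested genes.

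Across libraries of the same diet, 6 pairs of genes were examined, giving 12 relations. Acta2 and Tagln varied together in control (Pearson's r = 0.838 with an adjusted permutation p of 0.0104, Spearman's rho = 0.86 with 0.00408, n = 12) and in MCD livers (r = 0.766 with 0.0104, rho = 0.867 with 0.00408, permutation tests, n = 12). Leaving out the 2 libraries whose Acta2 level was farthest from the median, r was 0.661 in control (adjusted permutation p = 0.0941) and 0.775 in MCD livers (adjusted permutation p = 0.0229). Leaving out extreme Acta2 libraries also narrows the Acta2 range, so the lower r cannot tell whether the relation rests on those libraries.

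Reln and Colec11 gave r = 0.575 in control (adjusted permutation p = 0.0946) and r = 0.66 in MCD livers (adjusted permutation p = 0.0445), with rho = 0.622 and 0.601 (adjusted permutation p = 0.0733 for both). Control replicate 12 departed from this relation, with low Reln and ordinary Colec11, and without it r in control was 0.857 (adjusted permutation p = 0.00624). After the 2 libraries with the most extreme Reln levels were left out, r was 0.935 in control (adjusted permutation p = 9.6e-04) and 0.582 in MCD livers (adjusted permutation p = 0.148, n = 10). In MCD livers r thus stayed of similar size while its p no longer passed.

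For Acta2 and Reln, r was 0.111 in control and -0.523 in MCD livers (adjusted permutation p = 0.738 and 0.0946), with rho = 0.0699 and -0.629 (adjusted permutation p = 0.839 and 0.0733). Without control replicate 12, r in control was 0.502 (adjusted permutation p = 0.132). Hand2 and Lhx2 gave r = 0.277 in control and 0.496 in MCD livers (adjusted permutation p = 0.429 and 0.129), with rho = 0.608 and 0.203 (adjusted permutation p = 0.0733 and 0.573). Without control replicate 12, r in control was 0.736 (adjusted permutation p = 0.0229). Col1a1, the main fibrillar collagen chain, was related to Acta2 with r = 0.571 and 0.564 (adjusted permutation p = 0.0946 for both), with rho = 0.399 and 0.455 (adjusted permutation p = 0.245 and 0.217). With Reln it gave r = 0.552 and -0.446 (adjusted permutation p = 0.0946 and 0.181) in control and MCD livers, with rho = 0.713 and -0.42 (adjusted permutation p = 0.0456 and 0.239). By Pearson's r none of these 4 pairs passed in either diet with all 12 libraries. For Reln and Col1a1 in control, r was 0.877 without control replicate 12 (adjusted permutation p = 0.00648) and 0.881 without the 2 libraries of most extreme Reln (adjusted permutation p = 0.00792). When the 2 most extreme libraries of each relation were left out, the sign changed in 2 relations, to -0.454 for Acta2 and Reln in control and to -0.186 for Hand2 and Lhx2 in MCD livers, and in no other.

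**Figure D4:**
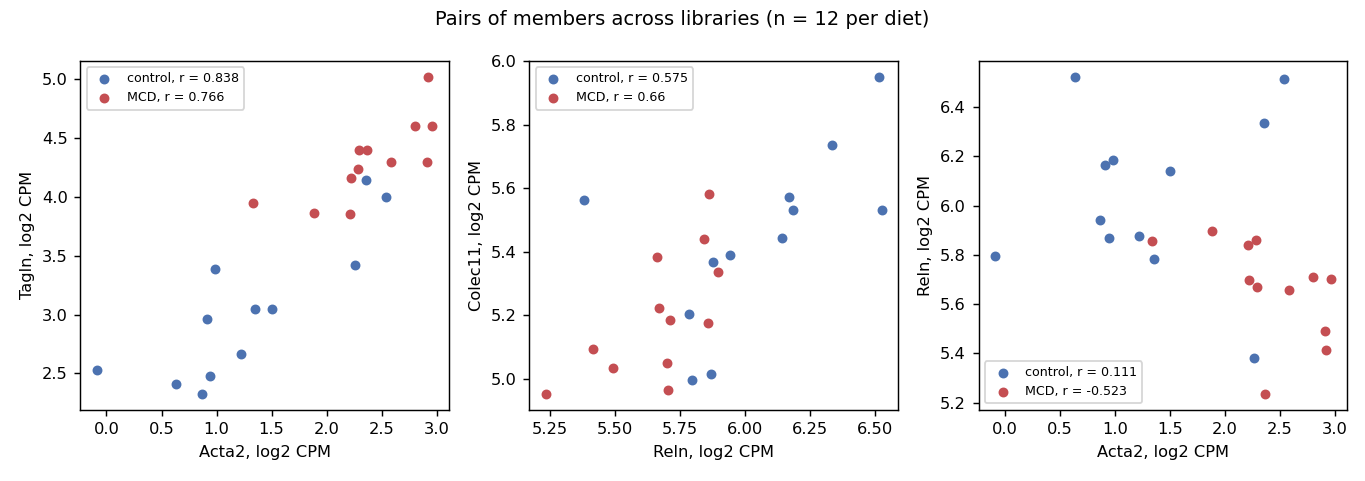
Log2 CPM of pairs of members across 12 control and 12 MCD libraries, a point for each library, with Pearson's r within each diet. Acta2 and Tagln follow each other in both diets, a low-Reln control library lies off the relation of Reln with Colec11, and Acta2 and Reln show r = 0.111 in control and -0.523 in MCD livers.

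Among 13092 genes with a mean of at least 1 CPM, those with the most similar pattern over both diets were sought by the lower of the within-diet r values, as a description over 12 libraries per diet that share depth and scaling. The closest gene to Acta2 was Tagln, and the closest to Tagln were Acta2, Mrgpre and the smooth muscle light chain gene Myl9 (r = 0.772 in control and 0.672 in MCD). Des was closest to Smtn, which encodes the contractile protein smoothelin (r = 0.944 and 0.935), then to Rcn3 and Ier5l. Hand2 was closest to Eva1b (r = 0.948 and 0.898), Sfn and Sema6c. For Reln the closest gene was Clca3a1 (r = 0.782 and 0.828), for Lhx2 Kdelc1 (0.762 and 0.918), for Ngfr Mtmr11 (0.714 and 0.73), for Colec11 Ptger2 (0.764 and 0.784) and for Rgs5 Eps8 (0.796 and 0.744). Apart from Acta2 and Tagln, no member was among the 3 closest genes of another.

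Other genes used as markers of quiescent stellate cells moved in opposite directions. Of 18 tested, 6 were higher, 6 were lower and 6 did not pass, with a median log2 fold change of -0.29. Large differences were those of Colec10, a collectin (-3.17), Tcf21, a transcription factor of the lineage (2.45), Angptl6 (-2.35), Cygb, a stellate cell globin (2.02), and Bambi, a decoy receptor of the TGF-β family (1.62). Lrat, which esterifies retinol for storage and is named here after its value was seen, fell by 0.93 on the log2 scale. Colec10, whose product pairs with that of Colec11, had mean levels of 17.9 ± 6.67 CPM in control and 2 ± 1 CPM in MCD livers (SD, n = 12).

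Contractile genes other than the members also moved in both directions. Of 13 tested, 6 were higher and 2 lower, with a median log2 fold change of 0.34. Those that rose most were Flna (filamin A, 1.82), Cnn2 (calponin 2, 1.22) and Lmod1 (leiomodin, 1.15), followed by Tgfb1i1 (0.94) and Synpo2 (0.80). Myh11, the heavy chain of smooth muscle myosin, fell by 0.80 on the log2 scale and Cald1 (caldesmon) by 0.50, the latter at the fold limit, while Cnn1 and Actg2 had at most 16 and 14 counts in a library and were not tested. Fibrogenic genes were nearly uniform, with 10 of 11 tested higher and a median of 2.11. The exception, Postn, had a log2 fold change of -0.15 (edgeR FDR 0.552). Timp1 (3.77), Lox (3.40) and Col1a1 (2.88), an inhibitor of matrix proteases, a collagen cross-linking enzyme and a collagen chain, rose most.

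**Figure D5:**
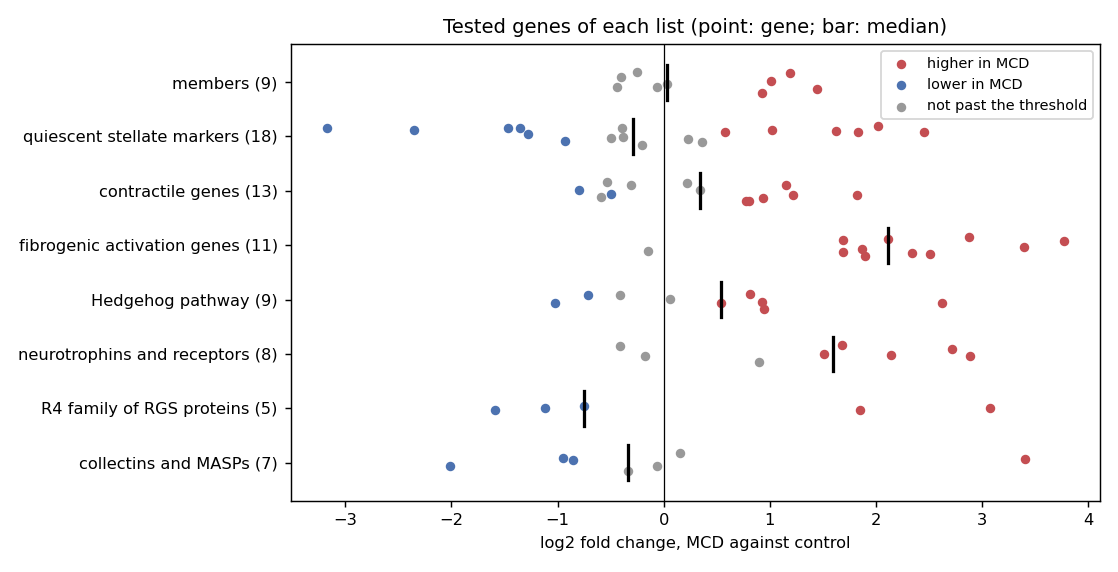
Log2 fold change of MCD against control for the tested genes of each list (number in parentheses), a point for each gene and a bar for the median. The median is 0.03 over the members, -0.29 over the other quiescent markers, 0.34 over other contractile genes and 2.11 over fibrogenic genes.

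The partners of the members in signalling were then examined. In the Hedgehog pathway, in which HHIP sequesters ligand, 5 of 9 tested genes were higher and 2 lower. The co-receptor genes Boc (2.62) and Cdon (0.93), the ligand gene Ihh (0.81), the transcription factor gene Gli3 (0.95) and the signal transducer gene Smo (0.54) rose. The co-receptor gene Gas1 (-1.02) and the receptor gene Ptch1 (-0.71), which like Hhip is a target of the pathway, fell. Gli1, the usual readout of the pathway, had a median of 3 counts in control and 17.5 in MCD livers and was not tested.

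Among neurotrophins and receptors that bind or work beside NGFR, 5 of 8 tested were higher and 3 did not pass, like Ngfr itself. Ntrk3 (2.89) and Ntf3 (2.72), a receptor and its ligand, rose, as did Bex3 (2.14) and the co-receptor Sort1 (1.51). Of the genes for reelin reception, Vldlr, a receptor, fell by 1.78 on the log2 scale and Dab1, the cytoplasmic adaptor, rose by 2.12, while Lrp8 was not tested. Of the RGS genes related to Rgs5, 2 of 5 tested were higher (Rgs1, 3.08, and Rgs2, 1.85) and 3 lower (Rgs16, -1.59; Rgs4, -1.12; Rgs3, -0.75), so that all 5 passed where Rgs5 did not. Of collectins and the proteases they activate, 1 of 7 was higher (Sftpd, 3.41) and 3 were lower (Mbl2, -2.01; Masp2, -0.95; Masp1, -0.85).

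Markers of other cells that could hold the members' RNA also differed between the diets. For vascular smooth muscle and pericytes, 1 of 5 tested genes was higher and 2 lower, and their summed level was 25.7 to 73.5 CPM in control and 26.1 to 38.6 CPM in MCD livers. Among their defining genes, Higd1b had at most 2 and Pln at most 5 counts in a library, and Myh11 and Lmod1, which moved in opposite directions, are also in the contractile list. All 6 tested portal fibroblast genes were higher, and their sum ran from 15.2 to 52.8 CPM in control and from 96.0 to 226 CPM in MCD livers. Mesothelial genes, of which 2 of 4 tested were higher (Wt1, 2.12; Gpm6a, 1.45), summed to 1.28 to 7.97 and 5.98 to 16.4 CPM. Of Schwann cell genes, 1 of 2 tested (Mbp, 2.33) was higher, with sums of 2.54 to 5.60 and 9.49 to 18.2 CPM, and Sox10 had at most 4 counts in any library.

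Cholangiocyte genes were higher in 5 of 5 (summed 30.1 to 146 and 452 to 904 CPM) and macrophage genes in 4 of 5, with Clec4f lower (93.9 to 251 and 205 to 355 CPM). Endothelial genes were lower in 5 of 6 (166 to 474 and 127 to 244 CPM) and hepatocyte genes in 4 of 7 (77400 to 179000 and 57000 to 82100 CPM), and the latter were by far the most abundant of these lists. With total counts alone, 16 of 74 genes followed under this scaling (up to 6 called genes of each list and those named beside them) lost their call, each of them lower in MCD, among them Lrat, Myh11, Cald1, Ptch1, Gas1, Rgs3 and Rgs4, and none of the 74 that had passed changed sign. The part of these cell types in the differences of the members was not tested.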

How the data were processed

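Raw read counts per Ensembl gene were deposited by the authors, with 1 column for each of 24 libraries and no normalization. The submitters' processing notes name STAR 2.7.3a, bcl2fastq and the mm10 build, which is GRCm38. For the mouse libraries, the counting program and the use of strand are not given in the sources used here. The supplementary methods name a stranded library kit, and the exon quantification pipeline and PISCES for reads aligned to the human genome. Symbols, positions and transcript lengths came from GENCODE M21, which named 51745 of 56205 rows. The table also holds identifiers newer than that release.

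Counts were filtered with filterByExpr by diet, scaled with TMM factors and compared with glmQLFit and glmQLFTest of edgeR 4.0.16 in R 4.3.3, with no covariate over 12 and 12 libraries. A gene passed at an FDR of 0.01 or less and a change above 0.5 on the log2 scale in either direction, limits that the study applied to human liver. Each SE is the size of the log2 change over the root of F. CPM values use TMM-scaled totals, and log2 CPM a prior count of 2. Permutation tests were two-sided with 100000 resamples (scipy 1.17.1, numpy 2.4.6, Python 3.11.15), and figures were drawn with matplotlib 3.10.9. Labels do not say how animals were housed or processed together, so p-values measure the spread between libraries. No pair of libraries of a diet matched within sampling noise (the lowest ratio of observed to Poisson variance was 11.4). Levels at 3 counts or fewer were treated as unresolved, a floor for counting error only.

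The members and gene lists were chosen with earlier results of these data known. The text names all members, up to 6 called genes of each other list by size of change with those needed to account for small counts, and for each member the genes of most similar pattern. Pcsk7 and Hand2os1 were named after their overlap with members was seen, as were genes of the lists that did not pass or were not tested. One listed hepatocyte gene, Tf, was not matched. Some genes of the lists are counted but not reported here by name. On counts simulated for 14109 genes with 200 changed, edgeR recovered 182 and called 2 unchanged genes. It recovered 86 of 100 genes changed by 1 on the log2 scale and 96 of 100 changed by 2. Smaller changes, and changes in as large a share of genes as passed here, were not simulated. Alternatives were other scaling factors, other filters, DESeq2 1.42.0, limma-voom (limma 3.58.1), blocking by replicate number, a covariate for sex-linked expression (a number, with no library given a sex), other thresholds and omission of single libraries.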

Additional observations from a re-analysis of the deposited data

How the results depend on the processing

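Acta2, Tagln, Des and Hand2 stayed higher past the threshold under the alternatives run, except that Des, at 0.93, did not pass a log2 limit of 1, and 4 members were higher whichever library was left out. The number of members lower was 1 with no filter on low counts, the member being Hhip, and 3 at an FDR of 0.05 with no fold limit (Reln, -0.40; Ngfr, -0.44; Colec11, -0.25). With a library left out it was 0 to 1, the latter without control replicate 12 or without any MCD library, when Hhip passed the filter. Signs reversed only for members that did not pass. Colec11 was 0.10 with total counts alone. Rgs5 was 0.08 with upper-quartile factors, 0.26 with total counts alone, 0.02 with at least 10 counts in every library, 0.04 with limma-voom and 0.04 with a replicate block, and -0.11 to 0.02 with a library left out. Lhx2 was -0.02 to 0.12 with a library left out. Postn, of the fibrogenic list, was 0.15 with total counts alone.

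Over all tested genes, the number higher was 2712, but 4539 with total counts alone and 1801 with at least 10 counts in every library. The number lower was 2688, but 1710 with upper-quartile factors, 848 with total counts alone, 5221 at an FDR of 0.05 with no fold limit and 686 at a log2 limit of 1. Calls higher made up 50.2% of the total, 56.5% with relative log expression factors and 84.3% with total counts alone, 41.7% at an FDR of 0.05 with no fold limit (3742 higher) and 73.1% at a log2 limit of 1 (1862 higher).

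Deviations of same-numbered libraries correlated by more than 0.1 in 8 of 12 pairs (r from -0.28 to 0.35, median 0.233), against a median of -0.0592 for differently numbered libraries. Since not every pair exceeded 0.1 and no label says that a number marks a shared cage, batch or day, the numbers were not taken to pair them. With the replicate block in the edgeR fit, 4 members were higher and 0 lower. The permutation tests were not repeated with this block. Of the tested members, none was related to the sex-linked score used as a covariate at an FDR below 0.143.

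Relative to Des, Tagln ranged from 0.20 to 0.41 with a library left out and passed without control replicate 8 (0.41). Of the relations, Acta2 and Tagln in control dropped to r = 0.661 without the 2 libraries farthest from the median, where Hand2 and Lhx2 in MCD livers gave -0.186 and Acta2 and Reln in control -0.454. Reln and Colec11 gave 0.935 in control and 0.582 in MCD livers on that basis, and 0.819 and 0.634 with total counts alone. Reln and Col1a1 in control gave 0.881. The cause of these shifts was not tested. Depth limits Hhip, whose MCD level is near the floor.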
